A study of Mus musculus with 18 samples.

Results

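The genes described here are 10 epithelial keratins of mouse nasal mucosa, taken by name: Krt5, Krt14 and Krt15 of basal cells, Krt4, Krt13, Krt6a and Krt6b of squamous cells, and Krt8, Krt18 and Krt19 of luminal cells. All 10 were found among the 54532 genes of the count table, and all 10 were among the 18291 genes that passed the filter on low counts. Poly(A) RNA was sequenced from 3 groups of 6 libraries. The CRS group models chronic rhinosinusitis, an inflammation of the lining of nose and sinuses: papain, a plant protease, was put into the nose (20 µg in 20 µL of saline buffer) on days 0 to 2 and again on days 7 to 11. The C10 group is taken to have had the same papain, because the protocol gives the compound C10, named in the title as an inhibitor of the DNA repair and redox protein APE1, to CRS mice. C10 was instilled once a day at 10 mg/mL, 10 µL into each side of the nose, for 10 days from the first papain dose. What the control group (CON) received is not stated, and neither are strain, age or sex. The labels do not say that each library is a separate mouse, so a p-value here compares group differences with the spread between libraries, which may be technical.

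Keratins are the intermediate filament proteins of epithelial cells. A filament needs a type I chain (here Krt13, Krt14, Krt15, Krt18 and Krt19) joined to a type II chain (Krt4, Krt5, Krt6a, Krt6b and Krt8), and each layer of an epithelium uses its own pair. Krt5 and Krt14 mark basal stem cells, Krt4 and Krt13 the upper layers of moist squamous lining, Krt6a and Krt6b wounded or fast-growing squamous cells, and Krt8 with Krt18 the columnar cells that face the airway. In the olfactory part of the nose Krt8 and Krt18 also mark sustentacular cells, and Krt5 and Krt14 the horizontal basal cells.

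The genes lie in the 2 keratin clusters of the mm10 genome, type I on chromosome 11 and type II, with Krt18, on chromosome 15. Krt13 (100117327 to 100121566), Krt15 (100131758 to 100135928), Krt19 (100140810 to 100148665) and Krt14 (100203162 to 100207548) span 90.2 kb. Krt6b (101676023 to 101680287), Krt6a (101689910 to 101694307), Krt5 (101707070 to 101712898), Krt4 (101918535 to 101924735), Krt8 (101996698 to 102004482) and Krt18 (102028180 to 102032027) span 356 kb. Krt8 and Krt18 are 23.7 kb apart and read in opposite directions, and Krt6b and Krt6a are 9.62 kb apart. Krt5, Krt6a, Krt6b and Krt8 overlap a non-coding gene of the table on the opposite strand, none of which passed the filter, and strand-specific counting is not stated.

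Upstream sequences are shown for Krt8 and Krt18, because their levels followed each other most closely of the 6 partner pairs compared, and for Krt13 as a squamous contrast. RefSeq windows (GRCm38.p6, the build mm10) were at hand for 5 of 10 keratins (Krt5, Krt8, Krt13, Krt14 and Krt18). Only bases before the gene as the table gives it are printed, so that no transcribed base is included. The RefSeq start lies 140 bases inside the table's gene for Krt8, 36 for Krt18 and 0 for the Krt13 start used. A second RefSeq start of Krt13 lies 989 bases inside the gene, so none of its upstream bases are printed. Capitals mark matches, on either strand, to 4 motifs, which do not overlap each other in the stretches printed. The TATA box was searched as TATAAA. Sites of the AP-1 factors were searched as TGANTCA. Those of Grainyhead-like factors were searched as AACNNGTT. The core of sites for KLF factors was searched as CCACCC.
Krt8 (chr15:102004483-102004592, strand -): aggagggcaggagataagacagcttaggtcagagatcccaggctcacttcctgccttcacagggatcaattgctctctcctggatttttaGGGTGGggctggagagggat
Krt18 (chr15:102027966-102028179, strand +): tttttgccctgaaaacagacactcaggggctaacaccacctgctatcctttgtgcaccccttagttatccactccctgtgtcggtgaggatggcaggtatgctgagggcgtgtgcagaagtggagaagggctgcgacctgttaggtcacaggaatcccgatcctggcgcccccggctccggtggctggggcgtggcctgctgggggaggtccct
Krt13 (chr11:100121567-100121816, strand -): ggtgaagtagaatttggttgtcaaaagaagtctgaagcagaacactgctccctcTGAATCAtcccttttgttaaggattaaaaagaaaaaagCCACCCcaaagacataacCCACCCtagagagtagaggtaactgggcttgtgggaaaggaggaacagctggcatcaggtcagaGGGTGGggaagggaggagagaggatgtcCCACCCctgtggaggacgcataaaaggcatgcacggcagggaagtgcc

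The 3 stretches have different letters. Krt8 holds the KLF core, read on the other strand, at -160 from the RefSeq start. Krt18 holds none of the 4 motifs in the printed stretch. Krt13 holds the AP-1 motif at -196 and the KLF core at -158, -140, -76 and -48. Of all 32851 mouse windows of 300 bases (250 before and 50 after the start, chromosome 18 left out), 31.5% hold the KLF core, 7.81% the AP-1 motif, 13.6% the TATA box and 4.20% the Grainyhead-like motif. The printed stretches (110 bases for Krt8, 214 for Krt18 and 250 for Krt13) are shorter than these windows. In its full window Krt18 holds the KLF core at 3 from the RefSeq start. The full window of Krt8 holds the KLF core also at -137 and the TATA box at -3 and -1. The window of the second Krt13 start holds the AP-1 motif at -183 and -34 from that start and no KLF core. A match is a match of letters, not a shown site.

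Total counts per library ran from 15883573 to 18433866, so that 3 counts were worth 0.163 to 0.193 CPM (counts scaled to a common library size, on library sizes scaled by edgeR). Genes of ciliated cells, glands, olfactory neurons and sustentacular cells were present in all groups, and the ciliated cell factor Foxj1 averaged 191, 142 and 182 CPM in CON, CRS and C10. For skin of the nostril, 16 epidermis and hair genes summed to 18.2 to 52.2 CPM over the 18 libraries. Of the 16, 4 or 5 were at 0 in a group. How much skin the samples held was not tested. Of the libraries, CON 3 and CRS 1 stood apart in these keratins. For 8 summed fibroblast genes CON 3 was the highest of 18 (11710 CPM) and CRS 1 ranked 3 of 18 (7721 CPM), and for the summed gland genes they were the 2 lowest (22857 and 18095 CPM). CRS 2 and CRS 5 had the 2 highest sums of olfactory neuron genes (9853 and 9381 CPM) and the 2 lowest of leukocyte genes (154 and 301 CPM).

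Per gene length, luminal keratins were the most abundant. On the deposited FPKM scale the mean over 18 libraries was 325 for Krt18, 264 for Krt8, 101 for Krt19, 82.1 for Krt15, 68.6 for Krt5, 38.3 for Krt14, 6.54 for Krt4, 5.84 for Krt6a, 1.88 for Krt13 and 1.30 for Krt6b. The lowest Krt8 library lay above the highest Krt19 library, and the lowest Krt14 library above the highest Krt4 library. Other neighbours in the order had overlapping ranges: Krt18 exceeded Krt8 in 18 of 18 libraries and Krt5 exceeded Krt14 in 18 of 18, but Krt19 exceeded Krt15 in 15, Krt15 exceeded Krt5 in 12, Krt4 exceeded Krt6a in 14 and Krt13 exceeded Krt6b in 14. The 10 genes held 86.0% of the FPKM summed over all 54 keratin genes of the table, of which 23 passed the filter and 5 had no count.

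**Figure D1:**
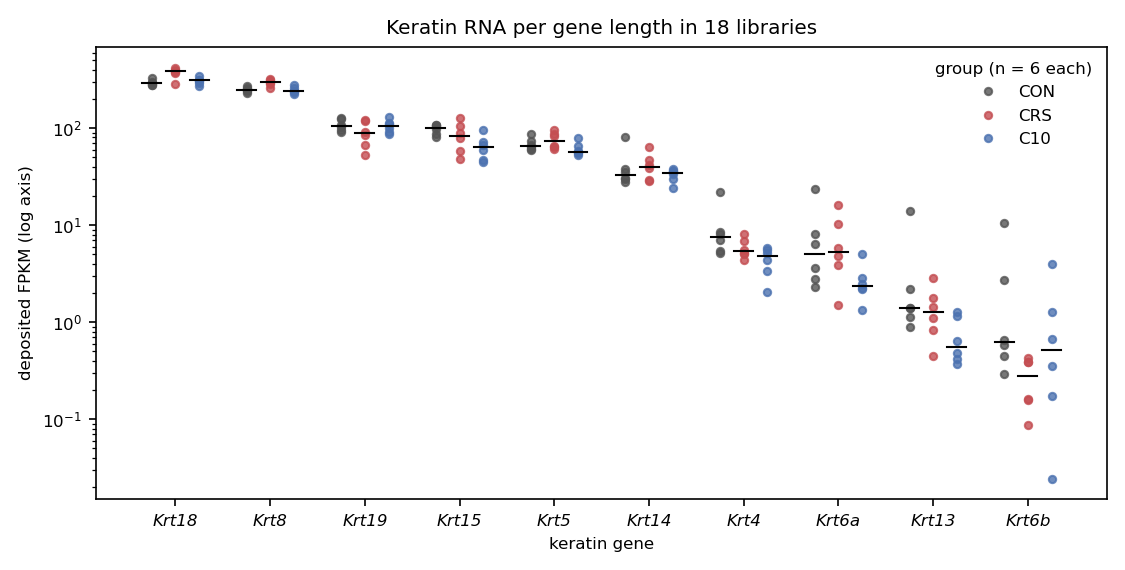
Deposited FPKM (log axis) of the 10 keratins, ordered by mean, with 1 point per library, 6 libraries per group and a bar at the group median. Krt18 and Krt8 lie above 225 FPKM in all 18 libraries, while the 4 squamous keratins spread most, with 1 CON library (CON 3) above the others.

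Within the 10 genes, the luminal keratins took a median of 77.8% of the FPKM, from 66.0% in CON 3 to 83.6% in CRS 6. Basal keratins took a median of 20.9%, from 15.6% in CRS 2 to 29.7% in CRS 1. Squamous keratins took 1.32%, from 0.683% in CRS 6 to 6.90% in CON 3. In bulk tissue a change in the number of cells of a type and a change of RNA per cell cannot be told apart.

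No keratin passed the test in any of the 3 comparisons. CRS was compared with CON to see what papain changed in the mucosa, and C10 with CRS to see what the compound changed in papain-treated mice. With edgeR's quasi-likelihood test and Benjamini-Hochberg adjustment over 18291 genes, 0 of 10 keratins had an adjusted p under 0.05 in CRS against CON, where 0.00547% of all genes were called. The count was again 0 of 10 in C10 against CRS, with 0.0820% of all genes called, and in C10 against CON, with 0.159% called. At an unadjusted p under 0.05, 4 of 10 passed in each comparison, against 14.0%, 13.2% and 13.1% of all genes in the same order. These were Krt8 and Krt18 (higher) and Krt4 and Krt6b (lower) for CRS against CON, Krt5, Krt6a, Krt8 and Krt18 (lower) for C10 against CRS, and Krt15, Krt4, Krt13 and Krt6a (lower) for C10 against CON. In no comparison did a keratin separate the 6 libraries of one group from those of the other, as 0.662%, 0.880% and 1.82% of all genes did. The C10 and CRS comparisons use the same CRS libraries, and both comparisons with CON the same CON libraries, so they are not independent of each other.

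Other tools called some of them. DESeq2 called 2 of 10 in CRS against CON (Krt8 and Krt18), 1 in C10 against CRS (Krt8) and 2 in C10 against CON (Krt4 and Krt13), against 0.979%, 1.91% and 1.74% of all genes. Limma-voom with quality weights called Krt8 and Krt18 in CRS against CON and in C10 against CRS, against 5.14% and 3.00% of all genes. It called 0 of 10 in C10 against CON, against 1.38%. These shares also stand beside the other genes that DESeq2 and limma-voom are said below to have called. Limma on log2 FPKM called 0 of 10 in each comparison, with a pseudocount of 1 or of 0.1, and had 2 or 3 of 10 at an unadjusted p under 0.05.

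The median log2 fold change of the 10 keratins was -0.19 in CRS against CON, -0.31 in C10 against CRS and -0.45 in C10 against CON, while the median over all genes tested was 0.00, 0.01 and 0.01. Of the 10, 4, 2 and 1 lay above 0 in the same order, beside 50.8%, 51.7% and 52.6% of all genes.

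**Figure D2:**
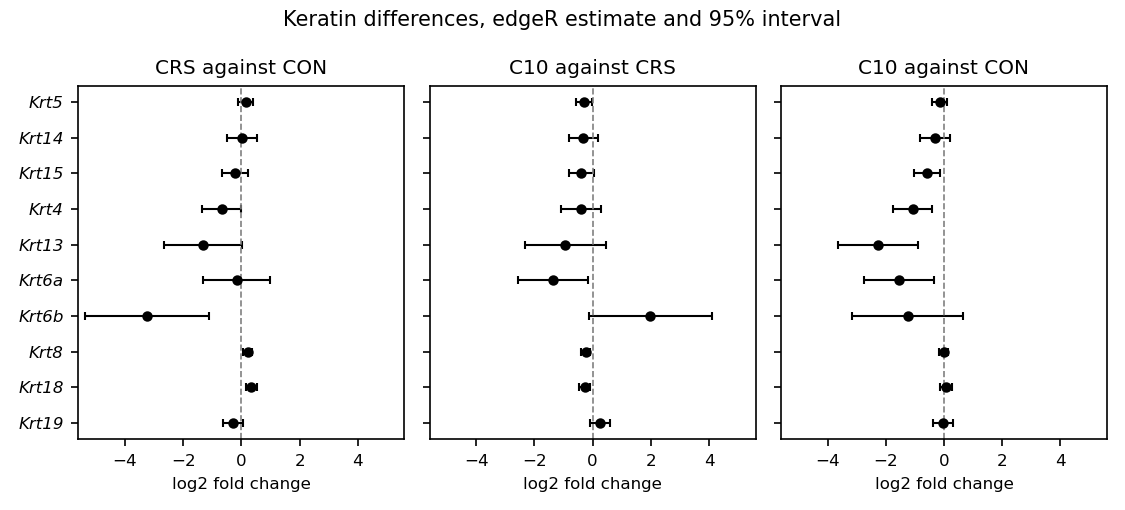
Log2 fold change of each keratin in the 3 comparisons, as estimated by edgeR from 6 libraries per group, with its 95% interval and a dashed line at 0. Intervals are narrow for Krt8 and Krt18 and span over 4 log2 units for Krt6b in CRS against CON.

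Krt8 is the type II and Krt18 the type I chain of simple epithelium, and both averaged higher in CRS than in either other group. Krt8 had 458 (lowest), 492 (median) and 540 CPM (highest) in CON, 502, 587 and 624 CPM in CRS, and 448, 480 and 548 CPM in C10. Every CRS library exceeded the CON median and 5 of 6 exceeded the highest CON library, and all 6 C10 libraries lay below the CRS median. The mean was 494.7 ± 27.4 CPM in CON, 579 ± 46.9 in CRS and 489.7 ± 35.9 in C10 (SD, n = 6 each), a log2 fold change of 0.23 ± 0.07 (SE) for CRS against CON (edgeR adjusted p = 0.227) and of -0.24 ± 0.07 for C10 against CRS (edgeR adjusted p = 0.173). Between C10 and CON Krt8 differed by -0.01 ± 0.07 on the log2 scale, with a 95% interval from -0.17 to 0.14.

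Krt18 also averaged highest in CRS. It had 401 (lowest), 427 (median) and 473 CPM (highest) in CON, 404, 559 and 616 CPM in CRS, and 391, 454 and 501 CPM in C10. In CRS, 5 of 6 libraries lay between 528 and 616 CPM, above the highest CON library, and CRS 1 alone lay at 404 CPM, among the CON libraries. The means were 427 ± 25.6, 539 ± 71.8 and 448 ± 37.3 CPM (SD, n = 6 each), and the log2 fold change was 0.34 ± 0.09 for CRS against CON (edgeR adjusted p = 0.206) and -0.27 ± 0.09 for C10 against CRS (edgeR adjusted p = 0.208). For C10 against CON it was 0.07 ± 0.09, with a 95% interval from -0.12 to 0.26.

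The edgeR outcome for this pair in CRS against CON turned on 1 library, while DESeq2 and limma-voom called both with all 18 libraries. Without CRS 1, edgeR called both, Krt8 at 0.26 ± 0.07 (edgeR adjusted p = 0.0399) and Krt18 at 0.41 ± 0.07 (edgeR adjusted p = 0.0139) in CRS against CON, and called 5.39% of all genes. Without CON 3 and CRS 1 together, a fit chosen after the data were seen, Krt18 was called (0.41 ± 0.08, edgeR adjusted p = 0.0343) and Krt8 was not (0.26 ± 0.08, edgeR adjusted p = 0.0828), with 1.30% of all genes called. With the mean level of olfactory neuron genes as a covariate, both were called lower in C10 against CRS (-0.25 ± 0.06, edgeR adjusted p = 0.0247, and -0.28 ± 0.07, edgeR adjusted p = 0.0462), with 2.86% of all genes called. The sign in both comparisons held in all 30 alternative fits, from 0.18 to 0.26 for Krt8 and from 0.27 to 0.41 for Krt18 in CRS against CON. Summed genes of sustentacular cells had medians of 12013, 14230 and 15770 CPM in CON, CRS and C10 and were lowest of all 18 libraries in CRS 1 (8809 CPM), and their part in the Krt8 and Krt18 values was not tested.

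**Figure D3:**
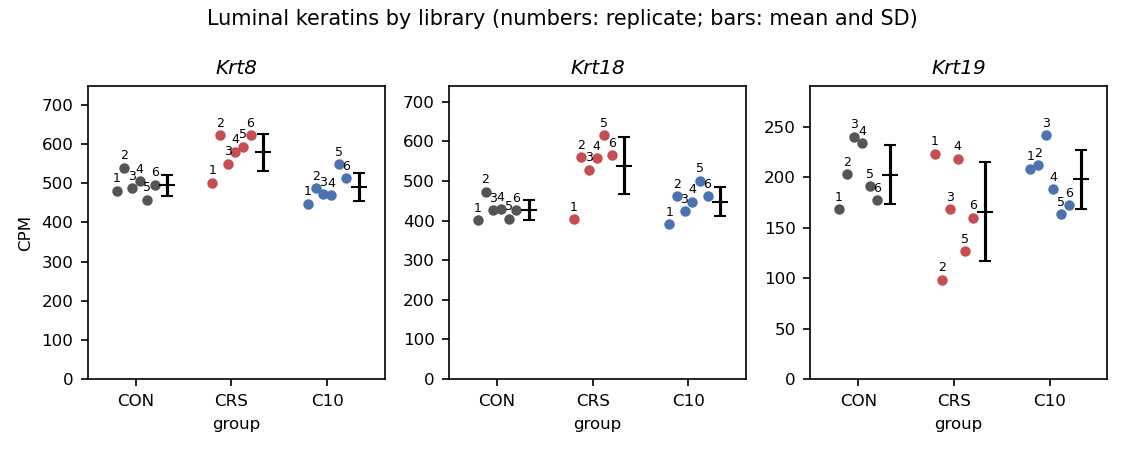
CPM of Krt8, Krt18 and Krt19 in each library (points, numbered by replicate) with the group mean and SD (bars, n = 6), on axes that start at 0. Krt8 and Krt18 are highest in CRS except for CRS 1, while Krt19 is lowest in CRS 2 and CRS 5.

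Krt19, the type I chain that luminal and some basal cells share, was lowest on average in CRS. It had 169 (lowest), 197 (median) and 240 CPM (highest) in CON, 98.6, 164 and 223 CPM in CRS, and 164, 199 and 242 CPM in C10. The low CRS values were those of CRS 2 (98.6 CPM), CRS 5 (127 CPM) and CRS 6 (160 CPM), the others overlapping CON. The log2 fold change was -0.29 ± 0.17 for CRS against CON (edgeR adjusted p = 0.454), 0.25 ± 0.17 for C10 against CRS (edgeR adjusted p = 0.549) and -0.03 ± 0.17 for C10 against CON (edgeR adjusted p = 0.957). Without CRS 2 and CRS 5 the first was -0.06 and the second 0.02.

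Krt8 and Krt18 were also the keratins that varied least. The SD of log2 CPM within groups was 0.10 for Krt8 and 0.15 for Krt18, smaller than in all but 4.65% and 17.9% of genes tested. At the other end it was 1.64 for Krt6b, 1.04 for Krt13 and 1.04 for Krt6a, with 99.2%, 97.5% and 97.5% of genes having a smaller SD. Among the 1000 genes closest in level, 14.0% had a smaller SD than Krt8 and 32.1% a smaller one than Krt18, while 96.8% were below Krt6b.

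Of the basal keratins, Krt5, the type II chain of basal cells, had 133 (lowest), 144 (median) and 193 CPM (highest) in CON, 136, 162 and 211 CPM in CRS and 118, 127 and 176 CPM in C10. The C10 libraries were low apart from C10 5 (176 CPM) and C10 2 (148 CPM), and 4 of 6 lay below the lowest library of CRS. The log2 fold change was 0.15 ± 0.13 for CRS against CON (edgeR adjusted p = 0.631), -0.30 ± 0.13 for C10 against CRS (edgeR adjusted p = 0.33) and -0.15 ± 0.13 for C10 against CON (edgeR adjusted p = 0.642).

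Krt14, its type I partner, had 49.5 (lowest), 58.7 (median) and 145 CPM (highest) in CON, 50.7, 70.3 and 112 CPM in CRS and 42.7, 61.7 and 67.6 CPM in C10. The values of 145 CPM in CON 3 and 112 CPM in CRS 1 lay above all the others, and the rest of the libraries of the 3 groups overlapped. The differences were 0.02 ± 0.24, -0.32 ± 0.24 and -0.30 ± 0.24 on the log2 scale for CRS against CON, C10 against CRS and C10 against CON, with edgeR adjusted p of 0.978, 0.626 and 0.629. The first changed sign in 7 of 30 alternative fits, from -0.14 without CRS 1 to 0.35 without CON 3, and the last turned to 0.03 without CON 3.

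Krt15, a type I chain of basal cells that can pair with Krt5, had 144 (lowest), 180 (median) and 192 CPM (highest) in CON, 85.8, 149 and 227 CPM in CRS and 81.2, 114 and 171 CPM in C10. The CON libraries were close together, CRS spread from below to above them, and 5 of 6 C10 libraries lay below the lowest CON library. C10 averaged 115 ± 33.5 CPM against 174 ± 19.9 in CON (SD, n = 6 each), a log2 fold change of -0.59 ± 0.21 (edgeR adjusted p = 0.243) that stayed below 0 in all 30 alternatives (-0.74 to -0.42). For CRS against CON it was -0.21 ± 0.21 (edgeR adjusted p = 0.677) and for C10 against CRS -0.38 ± 0.21 (edgeR adjusted p = 0.455).

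Among 14 other genes of basal cells fixed as a list, 0 were called by edgeR in any comparison. At an unadjusted p under 0.05, 1 was higher and 1 lower in CRS against CON, 0 and 2 in C10 against CRS, and 1 and 5 in C10 against CON, beside 14.0%, 13.2% and 13.1% of all genes; 2 of 14 is near that share. Their median log2 fold change was -0.13, -0.16 and -0.33. Trp63, the transcription factor that maintains basal cells, averaged 42.7, 48.4 and 42.5 CPM in CON, CRS and C10, a log2 fold change of 0.18 ± 0.12 for CRS against CON and -0.19 ± 0.12 for C10 against CRS. Limma-voom called Sox2, a factor of airway basal and sustentacular cells, higher in both comparisons with CON (means of 82.7, 100.3 and 101 CPM), and DESeq2 called Cav1, a membrane protein of caveolae, lower in C10 against CON (30.2 against 44.3 CPM).

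The squamous keratins were low and uneven, and their CON means rested on CON 3. Krt13, the type I chain of the moist squamous lining, had 1.65 (lowest), 2.58 (median) and 25.7 CPM (highest) in CON, 0.819, 2.30 and 5.26 CPM in CRS and 0.685, 1.03 and 2.35 CPM in C10. CON 3 alone was 9.97-fold above the median of the other CON libraries, and 4 of 6 C10 libraries lay below the lowest CON library. C10 against CON was -2.27 ± 0.66 (edgeR adjusted p = 0.171) with CON 3 and -0.95 ± 0.42 (edgeR adjusted p = 0.429) without it. CRS against CON was -1.32 ± 0.63 (edgeR adjusted p = 0.357) with CON 3 and -0.01 ± 0.42 without it.

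Krt4, the type II partner of Krt13, had 11.1 (lowest), 16.2 (median) and 47.1 CPM (highest) in CON, 9.36, 11.5 and 17.8 CPM in CRS and 4.47, 10.3 and 12.6 CPM in C10. Again CON 3 was the highest, 3.15-fold above the median of the other CON libraries, and the other libraries of CON and CRS overlapped. The log2 fold change of C10 against CON was -1.08 ± 0.32 (edgeR adjusted p = 0.183), or -0.62 ± 0.23 without CON 3 (edgeR adjusted p = 0.347), and all 6 C10 libraries lay below the CON median. It was -0.68 ± 0.32 for CRS against CON (edgeR adjusted p = 0.353), or -0.22 ± 0.23 without CON 3, and -0.40 ± 0.32 for C10 against CRS (edgeR adjusted p = 0.642).

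Krt6a, a type II chain that squamous cells make after wounding, had 5.69 (lowest), 12.3 (median) and 57.4 CPM (highest) in CON, 3.69, 12.9 and 38.6 CPM in CRS and 3.22, 5.81 and 12.3 CPM in C10. CON 3 (57.4 CPM) and CRS 1 (38.6 CPM) were the 2 highest, and all 6 C10 libraries lay below the CRS median. C10 was at -1.37 ± 0.57 against CRS (edgeR adjusted p = 0.306) and at -1.53 ± 0.57 against CON (edgeR adjusted p = 0.266), and these were -0.95 ± 0.43 and -0.79 ± 0.43 without CON 3 and CRS 1. CRS against CON was -0.16 ± 0.55 (edgeR adjusted p = 0.92), and it turned to 0.58 without CON 3.

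Krt6b, a near copy of Krt6a, had 12 to 442 counts in CON, 3 to 16 in CRS and 1 to 141 in C10, or 0.655 (lowest), 1.39 (median) and 24.0 CPM (highest), 0.193, 0.620 and 0.967 CPM, and 0.0557, 1.15 and 9.0 CPM. The high values were CON 3 (24.0 CPM), C10 6 (9.0 CPM) and CON 5 (6.06 CPM), and the CRS libraries overlapped the low end of both other groups. CRS against CON was -3.23 ± 1.01 on the log2 scale (edgeR adjusted p = 0.227), or -1.78 ± 0.86 without CON 3. C10 was at 1.98 ± 1.00 against CRS (edgeR adjusted p = 0.411) and at -1.25 ± 0.90 against CON (edgeR adjusted p = 0.573), and the last turned to 0.20 without CON 3.

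The split of reads between these copies is uncertain. Of all 100-base windows of the Krt6a transcript in GENCODE M21, 34.0% also occur in another gene, mostly Krt6b, and of those of Krt6b 30.6%, mostly in Krt6a. The share was 16.9% for Krt8, mostly with the pseudogene Krt8-ps, which itself had only 78, 77 and 64 counts summed over the CON, CRS and C10 libraries. It was 2.88% for Krt14 (with Krt16), 2.38% for Krt5 (with Krt6a) and 0 for the other 5 keratins. The shares depend on the window. At 50 bases they were 49.5% for Krt6a, 50.1% for Krt6b, 26.9% for Krt8, 14.4% for Krt14 and 8.52% for Krt5. They were 0.720% for Krt18, 0.666% for Krt15 and 0 for Krt4, Krt13 and Krt19. How reads that fit several genes were counted is not given in the sources used here.

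Other squamous genes, summed, were highest in the same libraries. The summed level of 23 squamous markers, of which 17 passed the filter, was 888 CPM in CON 3 and 619 CPM in CRS 1, the 2 highest of 18, against a median of 412 in CON, 393 in CRS and 343 in C10. A few genes weighed most in the sum: Il1rn alone had 208 CPM in CON 3. By the mean log2 CPM of the 17, CON 3 was again the highest (4.15). CRS 1 (2.83) then lay below other libraries, such as C10 2 (3.31) and CON 5 (3.29). Single genes could differ: Sprr1a, a cornified envelope protein, was highest in CRS 2 (36.4 CPM). The median log2 fold change of the 17 was -0.01 in CRS against CON, -0.44 in C10 against CRS and -0.61 in C10 against CON. EdgeR called 0 of 17 in each; at an unadjusted p under 0.05, 0 were higher and 2 lower, 1 and 3, and 0 and 5, beside 14.0%, 13.2% and 13.1% of all genes. DESeq2 called Sfn (the epithelial 14-3-3 protein stratifin) lower in C10 against CRS and Sfn, Emp1 and Ecm1 lower in C10 against CON. It called 1.91% and 1.74% of all genes there. Emp1 (126 CPM) and Ecm1 (117 CPM) were highest of all 18 libraries in CON 3. Limma-voom called Sfn lower in both comparisons, with 3.00% and 1.38% of all genes called. Sfn averaged 48.5 CPM in C10 and 69.1 in CRS, a log2 fold change of -0.51 ± 0.14 (edgeR adjusted p = 0.136), and all 6 C10 libraries lay below the CRS median. The fibroblast sum in CON 3 (11710 CPM) was also the highest of 18, and 7 of 8 fibroblast genes were lower in C10 than in CON at an unadjusted p under 0.05 (13.1% of all genes; median log2 fold change -0.83), as Krt4, Krt13, Krt6a and Krt15 were; its part in these keratin values was not tested. The sum of epidermis and hair genes in CON 3 was 32.4 CPM and ranked 6 of 18, and the part of skin in these keratin values was not tested.

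Partner keratins were correlated to different degrees. Over the 18 libraries, Krt8 and Krt18 had a Pearson r of 0.92 and a Spearman rho of 0.87 (log2 CPM, permutation p = 1e-05 for both, the smallest that 100000 permutations give, and 6.00e-05 adjusted over 6 pairs). Of the other 18290 genes, Krt18 was the closest to Krt8 and Krt8 the closest to Krt18. The r was 0.91 without CRS 2 and CRS 6, and 0.92 in CON, 0.86 in CRS and 0.92 in C10 (n = 6 each). Libraries were permuted across all groups, so a shift that a group shares counts in each p. With group means taken off, r was 0.87 for Krt8 and Krt18, 0.84 for Krt5 and Krt14 and 0.78 for Krt4 and Krt13. It was 0.61 for Krt6a and Krt6b, 0.44 for Krt5 and Krt15 and -0.52 for Krt8 and Krt19. Their FPKM ratio, Krt8 over Krt18, stayed between 0.707 (CRS 5) and 0.911 (CRS 1).

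Krt5 and Krt14 had r = 0.84 and rho = 0.81 (permutation adjusted p = 6.00e-05 and 0.00018), 0.78 without CRS 1 and CRS 5, and 0.96, 0.93 and 0.67 within CON, CRS and C10. Of the other 18290 genes by r, Krt14 ranked 2 for Krt5 and Krt5 ranked 3 for Krt14. Krt4 and Krt13 had r = 0.85 and rho = 0.69 (permutation adjusted p = 1e-04 and 0.00384), and each was the gene closest to the other of all tested. That relation leaned on CON 3: r was 0.70 without CON 3 and C10 6, and 0.98, 0.81 and 0.33 within CON, CRS and C10. Krt5 with Krt15 reached r = 0.48 and rho = 0.51 (permutation adjusted p = 0.0451 and 0.0412), 0.39 without CRS 1 and CRS 5, and 0.73, 0.67 and 0.03 within the groups. Many genes were closer to each: of 18290, Krt15 ranked 799 for Krt5 and Krt5 ranked 3330 for Krt15.

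Krt6a and Krt6b, the 2 copies, had r = 0.48 and rho = 0.38 (permutation adjusted p = 0.0451 and 0.117), only 0.27 without CON 3 and CRS 1. Of the other 18290 genes by r, Krt6b ranked 1877 for Krt6a and Krt6a ranked 636 for Krt6b. Their FPKM ratio ran from 0.721 in C10 6 to 102 in C10 4, where Krt6b had 1 count. Krt8 and Krt19, the second type I chain open to Krt8, were opposed: r = -0.65 and rho = -0.53 (permutation adjusted p = 0.00436 and 0.0396), -0.47 without CRS 2 and CRS 6, -0.69 in CRS and -0.73 in C10, but 0.24 in CON. Of the other 18290 genes by r, Krt19 ranked 17698 for Krt8 and Krt8 ranked 17472 for Krt19. Many genes were thus more opposed to each, and the opposition was not particular to this pair. The FPKM ratio Krt8 over Krt19 went from 1.85 in C10 3 to 5.99 in CRS 2.

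**Figure D4:**
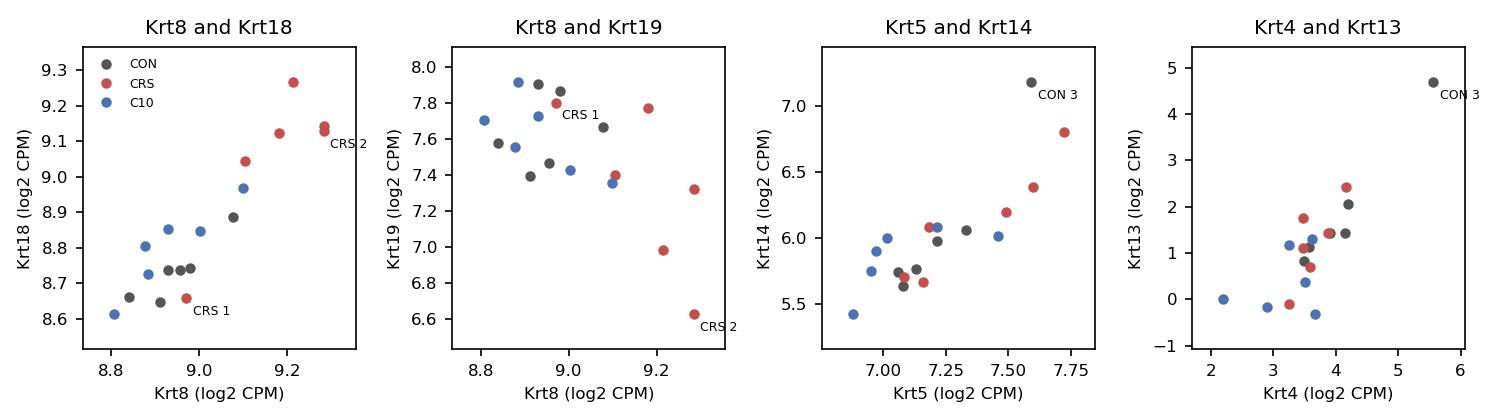
Log2 CPM of 4 keratin pairs, 1 point per library coloured by group (n = 6 each), with CON 3 or CRS 1 and CRS 2 marked. Krt8 and Krt18 lie on 1 rising line in all groups (r = 0.92), Krt8 and Krt19 oppose each other (r = -0.65), and CON 3 is the end point for Krt4 and Krt13.

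Over all pairs of the 10 keratins, r among the basal and squamous genes ran from 0.24 (Krt5 with Krt6b) to 0.85 (Krt4 with Krt13). Krt14 and Krt6a had r = 0.79, Krt15 and Krt4 0.66, Krt14 and Krt13 0.65 and Krt15 and Krt6a 0.64. Krt8 and Krt18 had r between -0.33 and 0.23 with each basal or squamous keratin. Krt19 was nearest to Krt15 (r = 0.59), a basal gene, and not to its luminal fellows. These correlations describe bulk libraries that share tissue make-up and carry no test.

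**Figure D5:**
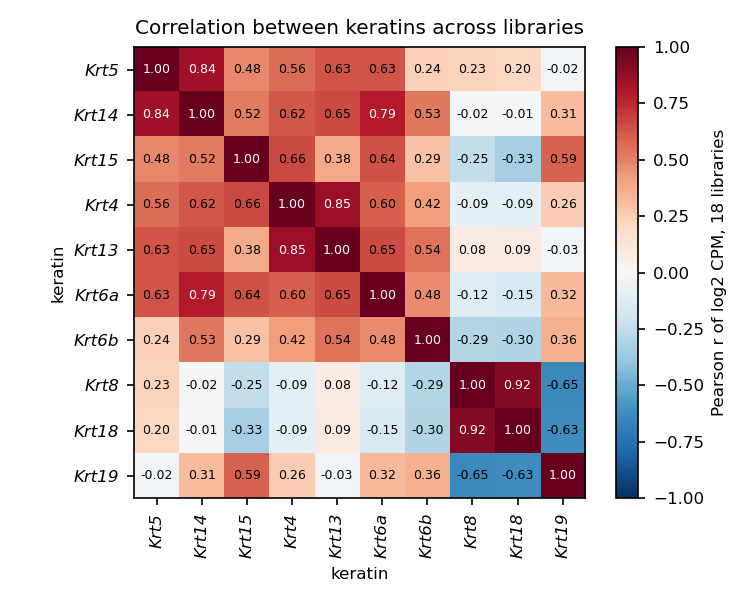
Pearson r of log2 CPM between each pair of keratins over 18 libraries, with the value in each cell and a colour scale from -1 to 1. Krt8 and Krt18 form a pair (0.92) with r of at most 0.23 to the basal and squamous keratins, and Krt19 is negative with both (-0.65 and -0.63).

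For each keratin the 3 protein-coding genes with the most similar pattern over the 18 libraries, members left out, were named. Krt14 and Krt13 shared Krt17, another type I keratin of basal and wounded cells, as the closest (r = 0.86 and 0.84). Krt17 was at 116 CPM in CON 3 against 24.5 to 56.4 CPM elsewhere. Krt5 was followed by Lrfn4 (r = 0.86), Col7a1 (0.81), the collagen that anchors basal cells to the tissue beneath, and Reep4 (0.81), which Krt14 shared (0.85) along with Atp1b3 (0.83). Krt13 was also near Spink5 (0.81), a protease inhibitor of cornified layers, and Lypd3 (0.80), and Krt4 near Psca (0.85), Fgfrl1 (0.83) and Adcy2 (0.81). Krt6a was near Atp1b3 (0.90), Cdh6 (0.88) and Igfbp3 (0.88), and Krt6b near Cpe (0.80), Osr2 (0.79) and Nt5dc2 (0.78). These values are Pearson r, and Spearman rho could differ. It was 0.45 for Krt4 with Psca and 0.56 for Krt6b with Cpe, but 0.90 for Krt4 with Adcy2.

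The luminal and Krt15 patterns resembled other genes. Krt8 was near the histone genes Hist1h1c (0.88) and Hist1h2bc (0.87) and near Rrp1 (0.87), a ribosome assembly factor. Krt18 was near Etfb (0.89) and Ndufs7 (0.89), both of mitochondrial electron transfer, and also near Rrp1 (0.88). Krt15 was near Pira2 (0.93), an immune receptor, Cmtm3 (0.91) and Cers2 (0.91). Krt19 was near Tnfsf14 (0.94), a cytokine, the membrane protease Tmprss4 (0.93) and Il18r1 (0.93), a receptor chain for interleukin 18. Leukocyte genes, summed, were lowest in CRS 2 and CRS 5, where Krt19 was lowest too, and their part in Krt19 was not tested.

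Of 18 other epithelial keratins, 8 passed the filter and edgeR called 0. At an unadjusted p under 0.05, 0 were higher and 1 lower in CRS against CON, 0 and 1 in C10 against CRS, and 1 and 3 in C10 against CON (14.0%, 13.2% and 13.1% of all genes), with median log2 fold changes of 0.12, -0.27 and -0.40. Krt7, a type II keratin of ducts and simple epithelium, had the smallest p of the list in C10 against CRS: 93.2 to 160 CPM in CRS against 76.1 to 106 CPM in C10, with all 6 C10 libraries below the CRS median. Its log2 fold change was -0.50 ± 0.12 (edgeR adjusted p = 0.105), and both DESeq2 and limma-voom called it. It was 0.21 ± 0.12 for CRS against CON and -0.29 ± 0.12 for C10 against CON (edgeR adjusted p = 0.313). Krt7 was thus highest on average in CRS, as Krt8 and Krt18 were, on the same shared CRS libraries, and averaged lower in C10 (91.0 CPM) than in CON (111 CPM).

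Of 16 measured luminal and secretory genes, 0 were called by edgeR, with 2 higher and 0 lower in CRS against CON, 0 and 2 in C10 against CRS and 0 and 1 in C10 against CON at an unadjusted p under 0.05, again beside 14.0%, 13.2% and 13.1% of all genes. Epcam, an adhesion protein of many but not all epithelial cells, averaged 298 CPM in CON, 361 in CRS and 336 in C10. Its log2 fold change was 0.27 ± 0.10 for CRS against CON (edgeR adjusted p = 0.27), and limma-voom called it. CRS 1 was again the exception, at 259 CPM against 348 to 441 CPM in the other CRS libraries. Cdh1, the cadherin of epithelial junctions, averaged 378, 383 and 352 CPM, with 0.02 ± 0.08 for CRS against CON, so it did not have the pattern of Krt8.

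Anchors and regulators of keratins did not pass either. Of 19 desmosome and hemidesmosome genes measured, 0 were called; 0 were higher and 2 lower in CRS against CON, 0 and 3 in C10 against CRS and 0 and 5 in C10 against CON at an unadjusted p under 0.05. For this and the lists that follow, the shares over all genes are again 14.0%, 13.2% and 13.1%, and 2 or 3 of 19 is near them. Perp, a desmosome protein, averaged 161 CPM in CRS and 129 in C10 (-0.31 ± 0.10, edgeR adjusted p = 0.19). Of 21 transcription factors of stratified and columnar epithelium, 0 were called, with 4 higher and 1 lower, 1 and 3, and 2 and 1. Elf3, an epithelial factor of simple and secretory cells, averaged 159 CPM in CRS and 119 in C10 (-0.42 ± 0.13, edgeR adjusted p = 0.19), and limma-voom called it lower. Of 16 genes of the wound and stress response of squamous cells, 0 were called, with 0 and 2, 0 and 1, and 0 and 6, and DESeq2 called Plau, the urokinase-type protease, lower in C10 against CRS (22.0 to 12.0 CPM, log2 fold change -0.87 ± 0.26). Limma-voom called Il1b lower in CRS against CON, where the edgeR adjusted p was 0.341. Il1b was at 258 CPM in CON 3, at 50.2 to 114 CPM in the other CON libraries and at 4.45 to 134 CPM in CRS. Neither DESeq2 nor limma-voom called a desmosome gene.

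In the 8 other marker lists edgeR called 0 genes in each comparison. At an unadjusted p under 0.05, CRS against CON had 3 higher sustentacular genes and 1 olfactory neuron gene, and 3 lower ciliated cell genes, 3 lower fibroblast genes and 1 lower muscle gene. C10 against CRS had 4 higher ciliated cell genes, 1 higher gland gene, 1 higher and 1 lower sustentacular gene, and 1 lower leukocyte gene. C10 against CON had 2 higher sustentacular genes, 1 olfactory neuron gene and 1 gland gene, and 7 lower fibroblast genes, 1 lower leukocyte gene and 1 lower muscle gene. The genes tested were 11 sustentacular, 12 olfactory neuron, 11 ciliated cell and 9 gland genes. The other lists held 8 fibroblast, 10 leukocyte, 4 muscle and 5 epidermis and hair genes. Over all genes the shares were 14.0%, 13.2% and 13.1%. A count of 1 in a list of 9 to 12 genes is near or below them. The epidermis and hair list had 0 in each. DESeq2 and limma-voom called Cd68, a macrophage protein, lower in C10 against CON, where they called 1.74% and 1.38% of all genes. Limma-voom also called Dcn lower there. In CRS against CON it called Col3a1, Dcn and Pdgfrb, genes of fibroblasts and pericytes, lower, with 5.14% of all genes called. The part of these cell types in the keratin values was not tested.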

How the data were processed

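Raw read counts per gene were deposited as whole numbers, 1 column per library, and the authors' FPKM values derive from those counts (within a column, count over gene length is proportional to FPKM); all columns matched a library and 0 were unused. The genome build is mm10 per the submitters' processing notes, the poly(A) kit per the labels' protocols is not stated to keep strand, and for aligner, counter and annotation nothing is given in the sources used here. FPKM served for levels between genes and as an alternative.

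In R 4.3.3, edgeR 4.0.16 (filterByExpr by group, TMM, quasi-likelihood F-test, 18 libraries, 1 mean per group) was fitted on all 18291 genes, two-sided, with Benjamini-Hochberg adjusted p under 0.05 as a call; the SE is the log2 fold change over the square root of F, and CPM use TMM library sizes. Correlations used log2 CPM (prior count 2) and 100000 permutations. DESeq2 1.42.0, limma 3.58.1 (voom, or log2 of FPKM plus 1 or 0.1) and other filters, size factors and left-out libraries made 30 alternative fits per comparison. Scripts were tested on simulated data. No 2 of the 18 libraries agreed within sampling noise (chi-square over degrees of freedom at least 13.5 in 153 pairs). Floors cover counting error only.

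Named were all members, the 3 genes of highest r with each member, and the gene of smallest p of each of 15 lists per comparison, with Trp63, Epcam and Cdh1; other names were chosen after their values were seen. Members and lists were chosen with earlier results of these data known.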

Additional observations from a re-analysis of the deposited data

Results flagged for a closer look

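A library far from the other 5 of its group (by Dixon's test at the 95% level) was found in 4 of 30 keratin-by-group sets; chance gives about 5% of sets. In CON, CON 3 was far above the rest for Krt14 (145 CPM), Krt4 (47.1 CPM) and Krt13 (25.7 CPM). In CRS, CRS 1 was far below the rest for Krt18 (404 CPM). CON 3 was also the highest of all 18 libraries for Krt6a (57.4 CPM) and Krt6b (24.0 CPM), where CON 5 (19.9 and 6.06 CPM) narrowed the gap.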

How the results depend on the processing

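Of 900 keratin values under 30 alternatives, 860 kept their direction and side of the threshold, 14 newly passed it and 26, in 8 of 30 keratin differences, changed sign; Krt8 and Krt18 kept theirs in CRS against CON and in C10 against CRS. Sign changes: CRS against CON turned to -0.071 for Krt14 with limma-voom, to 0.21 (olfactory covariate), 0.095 (without CRS 2 and CRS 5) and 0.16 (without CON 3 and CRS 1) for Krt6a, and to 0.11 for Krt13 (without CON 3 and CRS 1). C10 against CON turned to -0.0043 for Krt18 and 0.12 for Krt19 with the covariate, to 0.0023 for Krt19 with limma-voom, and without CON 3 and CRS 1 to 0.031, 0.20 and 0.023 for Krt14, Krt6b and Krt19. Leaving out 1 library each gave -0.14 to 0.35 for Krt14 and -0.58 to 0.58 for Krt6a (CRS against CON), and, for C10 against CON, -0.38 to 0.032 for Krt14, -2.36 to 0.20 for Krt6b, -0.058 to 0.012 for Krt8 and -0.098 to 0.023 for Krt19. The r of Krt8 with Krt19 was 0.24 within CON. The cause was not tested.

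Keratins called (0 in each comparison with edgeR) became 2 in C10 against CRS with the covariate, 2, 2 and 0 with limma-voom, 2, 1 and 2 with DESeq2 (CRS against CON, C10 against CRS, C10 against CON), 1 in CRS against CON without CON 3 and CRS 1, and 0 to 2 there with 1 library left out, 2 being without CRS 1. Genes called (1, 15 and 29) became 940, 548 and 252 with limma-voom, 179, 350 and 318 with DESeq2, 2, 523 and 132 with the covariate, 0, 9 and 161 with only the 2 groups, and 238, 38 and 49 without CON 3 and CRS 1. They were 100 and 74 in both C10 comparisons without CRS 2 and CRS 5, 3 and 23 in both CRS comparisons at 1 CPM in 6 libraries, 17 in C10 against CON with no filter, 2 and 23 with FPKM plus 1, and 2 with FPKM plus 0.1. With 1 library left out they ran from 0 to 994, 7 to 81 and 3 to 110, with 994 and 110 without CRS 1 and 81 without CRS 2. The replicate block gave 0 genes called in CRS against CON and 12 in C10 against CON, and 0 keratins. Same-numbered libraries correlated at -0.57 to 0.23 in CRS against CON and at -0.42 to 0.19 in C10 against CON. In C10 against CRS they correlated at -0.23 to 0.52. The pairs over 0.1 were 3, 1 and 4 of 6 in that order, and whether the numbers pair libraries is not known. Depth limits Krt6b (1 to 442 counts) and Krt13 (11 to 474) most.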
